A study of Mus musculus with 57 samples.

Results

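Prefrontal cortex RNA of mice carrying 1 Shank3 delta C allele (HT, heterozygous) was compared between lithium and vehicle. The comparison rests on 17 of the 56 libraries analysed: 9 HT lithium libraries (4 males and 5 females) against 8 HT vehicle libraries (3 males and 5 females), chosen by the genotype, drug and sex in their labels, with males and females weighted equally. All mice were C57BL/6J. The pups took up the drug through their mothers' milk for 3 weeks, from postnatal day 3 to day 24, and the tissue was taken on day 25, so the dose each pup received is not known. Wild-type (WT) mice given lithium (4 females and 5 males) or vehicle (5 females and 5 males) served to show where the HT response differed. The other 20 libraries, from HT and WT mice given fluoxetine, an antidepressant that blocks serotonin reuptake, entered the fit only through the shared estimate of the spread. The labels name no litters, and every p-value takes each mouse as a separate one.

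Lithium is a mood stabiliser that inhibits the kinase GSK3 and the phosphatases that recycle inositol, among them inositol monophosphatase. Through GSK3 it acts on beta-catenin signalling, and by lowering inositol it acts on phosphoinositide signalling. Shank3 is a scaffold of the postsynaptic density, the protein layer under excitatory synapses. Cells with much unfolded protein in the endoplasmic reticulum (ER) raise a set of chaperones, the unfolded protein response, and many of these genes carry the ER stress response element, ERSE, a CCAAT box and a CCACG box set 9 bases apart, which ATF6 and XBP1 bind.

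Values are normalised counts, that is, gene counts after division by a size factor of their library, and effects are differences of log2(value + 1), lithium minus vehicle, ± SE. Whole reads recovered from them numbered 22984556 to 35969254 per HT lithium library and 23562612 to 35174902 per HT vehicle library. HT vehicle female replicate 1 stood 5.81 log2 units above the median library in choroid plexus markers, and HT lithium female replicate 5 lay at -1.64 in mitochondrially encoded genes; both are called the libraries apart below. Olfactory bulb markers summed to 238.8 to 10790 normalised counts in HT lithium libraries and 275.2 to 8978 in HT vehicle libraries. In bulk tissue, fewer cells of a type and less RNA per cell cannot be told apart.

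Lithium changed 1761 of 18026 tested genes in HT cortex (9.77%), of which 913 were higher (5.06%) and 848 lower (4.7%), at a Benjamini-Hochberg adjusted p below 0.05 in a limma-trend fit. Most of the changes were small. The median size was 0.24 on the log2 scale, 98 of the changed genes exceeded 0.5 and 9 exceeded 1. Of the 1761 genes, 1747 moved the same way in both sexes, with a median size of 0.20 in males and 0.29 in females. In females alone 1894 genes passed (10.5%). In males alone, with 4 libraries against 3, only 3 passed with limma (0.0166%) and 1 with edgeR, and 1954 had an unadjusted p under 0.05. The named 2 of the 3 were Abca7 and Mgat4c, chosen here after their values were seen. In 107 of the higher and 143 of the lower genes no HT lithium library overlapped any HT vehicle library; over all tested genes this held for 0.599% on the higher and 0.804% on the lower side. Within males alone the groups did not overlap in 17.5% of tested genes, and within females alone in 6.49%. Without HT vehicle male replicate 3 the count of changed genes was 995, and without HT vehicle female replicate 3 that of females alone was 1245.

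The effect moved with the base composition of the transcript. Genes called higher had a median GC content of 55.65% and a median length of 4663 bases, genes called lower 43.27% and 3105 bases, and all tested genes 49.33% and 3166 bases. The median effect in HT mice was -0.14 for transcripts under 40% GC and 0.14 for those over 60%. Over the same bins the WT median, with the sexes averaged, stayed between -0.046 and 0.0068. The slope of a library's log2 values with GC content, per 10 percentage points, was 0.056 ± 0.104 (SD, n = 9) in HT lithium libraries and -0.053 ± 0.054 (SD, n = 8) in HT vehicle libraries. The difference with the sexes weighted equally was 0.11 (2-sided exact permutation within sex, p = 0.0158, adjusted p = 0.0315 over 2 slopes); within males it was 0.13 (exact p = 0.114, 35 arrangements) and within females 0.10 (exact p = 0.167, 252 arrangements). In WT mice the mean slope moved in opposite directions in the sexes, which the average hides. In WT males it was -0.015 ± 0.076 (SD, n = 5) under lithium against 0.065 ± 0.056 (SD, n = 5) under vehicle. In WT females it was -0.011 ± 0.058 (SD, n = 4) against -0.064 ± 0.079 (SD, n = 5). These WT shifts were not tested. With the trend in GC content and length removed from each library, 418 genes passed (2.32%), 207 higher (1.15%) and 211 lower (1.17%). Of these, 354 had also passed without the correction. Because this pattern touches the gene groups below, the number of members that also passed with the correction, termed GC-corrected, is given with their counts. The part of GC content in these results was not tested.

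**Figure D1:**
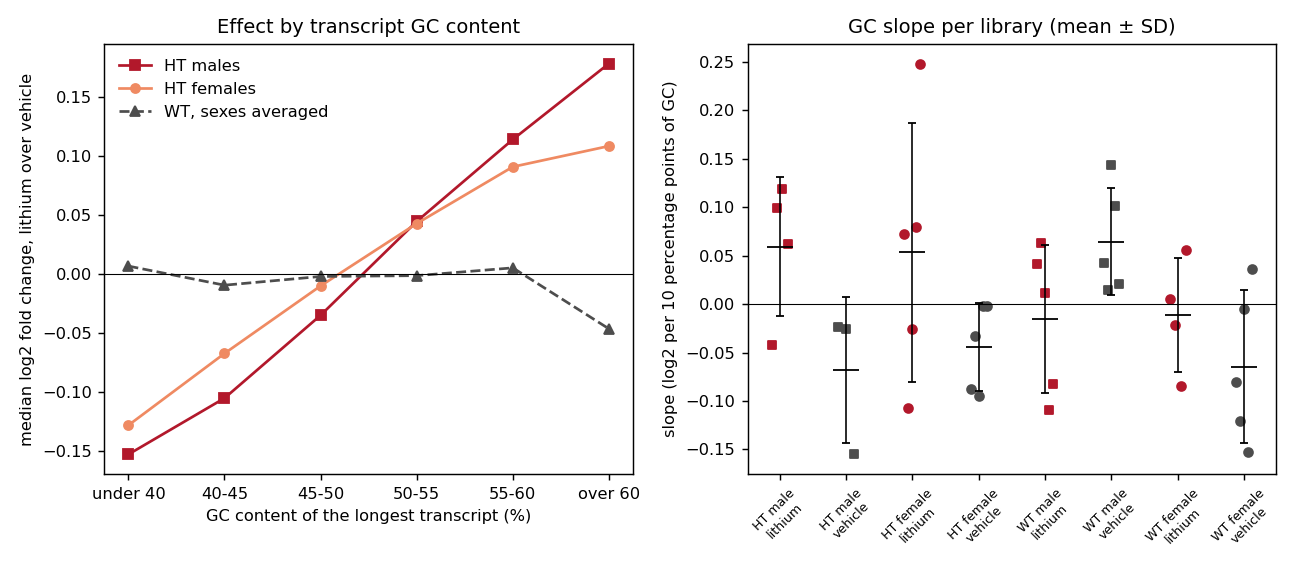
Left, median log2 fold change of lithium over vehicle in bins of transcript GC content, for HT males (squares), HT females (circles) and WT mice (triangles). Right, the GC slope of each library in log2 units per 10 percentage points, with the mean and SD of each group. In HT mice the median effect climbs with GC content in both sexes, to 0.14 in the bin over 60% against -0.14 in the bin under 40% with the sexes averaged. The WT line, also with the sexes averaged, stays near 0. At right the mean WT slope is lower under lithium than vehicle in males and higher in females.

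Several genes separated the groups completely, as the plot of values by library shows. Abca7 encodes a lipid transporter of the ABC family. It lay at 879 to 973 normalised counts in the HT lithium libraries (median 920.3), against 632 to 712 in the HT vehicle libraries (median 670.0). Every lithium library lay above every vehicle library, and the effect was 0.47 ± 0.053 (limma adjusted p = 1.63e-07), the smallest p of all genes; it was 0.44 in males and 0.49 in females, and 0.30 after GC correction (adjusted p = 0.000127). Abca7 lies at chromosome 10, 79996494 to 80015572 (GRCm38). Col4a2, a chain of the type IV collagen of basement membranes, lay at 3407 to 4803 normalised counts in the HT lithium libraries (median 3648), against 2342 to 2894 in the HT vehicle libraries (median 2713), again without overlap, for an effect of 0.48 ± 0.066 (limma adjusted p = 9.3e-06). Its partner chain Col4a1, named after its values were seen, rose by 0.38 (limma adjusted p = 9.1e-05). Ints1 and Ints3, subunits of the Integrator complex that cleaves small nuclear RNAs, rose by 0.46 ± 0.066 and 0.26 ± 0.038, and Sgsm1 and Mical3 rose by 0.37 ± 0.053 and 0.29 ± 0.042, with limma adjusted p from 1.45e-05 to 2.16e-05. None of the 4 overlapped between lithium and vehicle libraries, and all 4 passed after GC correction. Of 14 Integrator subunits tested, 2 were called higher and 1 lower (5.06% and 4.7% of all tested genes were). The median effect over the 14, a family assembled after its values were seen, was 0.007.

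Among the largest rises was Vgf, which encodes a secreted neuropeptide precursor induced by neurotrophins and neuronal activity. Vgf lay at 4589 to 7392 normalised counts in the HT lithium libraries (median 5743), against 2912 to 4318 in the HT vehicle libraries (median 4046), without overlap, and rose by 0.66 ± 0.14 (limma adjusted p = 0.00116). Of the 31 activity-induced effectors and neurotrophins tested, Vgf was the only one called (3.23%, against 9.77% of all tested genes), and it passed GC-corrected. Dok3, an adaptor of immune-cell signalling, lay at 220.5 to 328 normalised counts in the HT lithium libraries (median 280.3), against 139 to 207 in the HT vehicle libraries (median 156), also without overlap (0.71 ± 0.13, limma adjusted p = 0.000409). Lars2 encodes the mitochondrial leucyl-tRNA synthetase. It lay at 6969 to 13472 normalised counts in the HT lithium libraries (median 9399.5), against 2863 to 8361 in the HT vehicle libraries (median 4839.6), with an effect of 0.81 ± 0.19 (limma adjusted p = 0.00377). In females Lars2 did not overlap between the groups (effect 1.21), and in males, where the effect was 0.40, the vehicle libraries lay below the lithium ones too, although vehicle males reached the lithium females' range. The neuronal adaptor Shc3 and the pseudokinase Prag1 rose by 0.53 ± 0.10 and 0.53 ± 0.096, and Crocc, which encodes the ciliary rootlet protein rootletin, by 0.56 ± 0.10 (limma adjusted p from 0.000337 to 0.000586). None of these 3 overlapped between groups. For Crocc, HT lithium female replicate 5 stood at 4748 normalised counts, against at most 2889 in the other lithium females, and the gene still passed without the libraries apart. GC-corrected results for the rises in this paragraph other than Vgf are not reported here.

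The largest falls included Mgat4c, of a family of enzymes that branch N-glycans. Mgat4c lay at 169 to 268 normalised counts in the HT lithium libraries (median 192), against 233 to 389 in the HT vehicle libraries (median 304); the ranges overlapped in females and not in males, and the effect was -0.57 ± 0.093 (limma adjusted p = 9.06e-05). Ccne2, which encodes the S-phase cyclin E2, lay at 113 to 160.4 normalised counts in the HT lithium libraries (median 138), against 169.8 to 241 in the HT vehicle libraries (median 211), without overlap (-0.56 ± 0.11, limma adjusted p = 0.000536). Srp54b, a gene for a subunit of the signal recognition particle, fell by 0.57 ± 0.10 on the log2 scale (limma adjusted p = 0.00027), with -0.84 in females and -0.30 in males. It has near-identical copies, so its reads may be split between them. Mctp1, Armcx5 and Kbtbd8 fell by 0.48 ± 0.12, 0.41 ± 0.09 and 0.41 ± 0.09 on the log2 scale. All 6 genes also passed after GC correction. Tspan2, a tetraspanin of oligodendrocytes, B3galt2 and the glycine receptor gene Glra2 had effects of -0.58 ± 0.15, -0.50 ± 0.12 and -0.50 ± 0.15 that passed as deposited (limma adjusted p from 0.00468 to 0.022) and not after GC correction (adjusted p = 0.08, 0.0917 and 0.205).

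**Figure D2:**
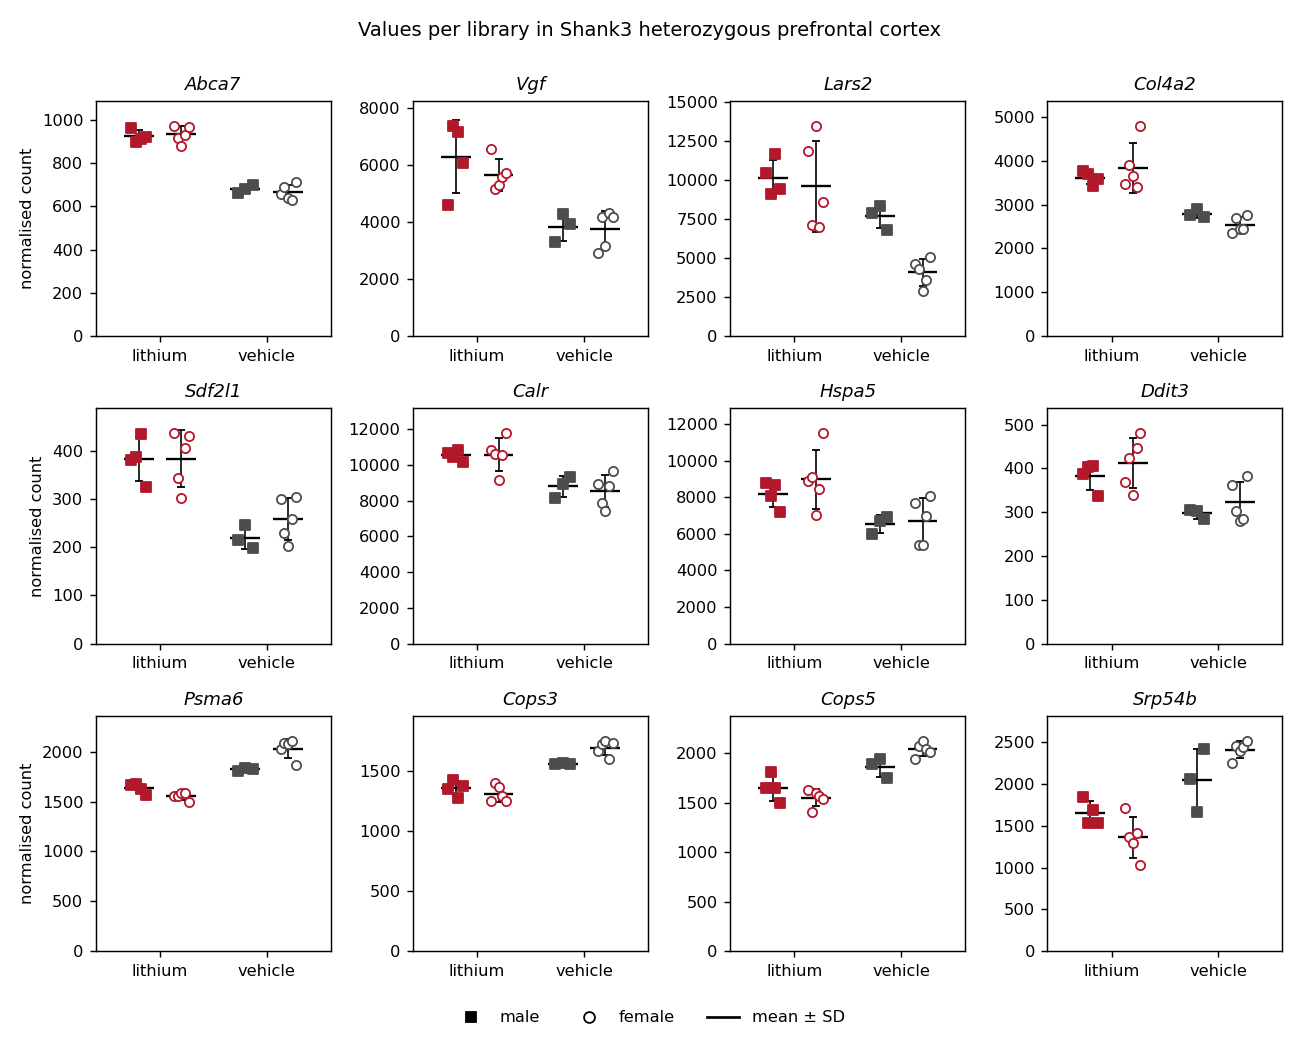
Normalised counts of 12 genes in each HT library, lithium left of vehicle, with males as filled squares, females as open circles and bars for the mean ± SD of each sex. In Abca7, Vgf and Col4a2 every lithium library lies above every vehicle library, in Psma6 and Cops3 every one lies below, and in Lars2 the vehicle males lie above the vehicle females.

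The ER chaperones and folding enzymes were the gene list with the highest share of members called, and most of the rises held after GC correction. Of 22 members tested, 10 rose and 2 fell (54.5% called, against 9.77% of all tested genes). Of the 10 rises 9, but neither fall, passed GC-corrected. The list's median effect was 0.17, against 0.002 over all tested genes, and its median GC content, 49.53%, was close to the 49.33% of all tested genes. The mean of the list per library relative to its median library was 0.10 ± 0.10 (SD, n = 9) under lithium and -0.05 ± 0.08 (SD, n = 8) under vehicle. Sequences upstream of 4 genes of this response are shown because they carry the ERSE letters; the capitals mark the whole element, CCAAT and CCACG with any 9 bases between them, or its reverse complement.

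Hspa5: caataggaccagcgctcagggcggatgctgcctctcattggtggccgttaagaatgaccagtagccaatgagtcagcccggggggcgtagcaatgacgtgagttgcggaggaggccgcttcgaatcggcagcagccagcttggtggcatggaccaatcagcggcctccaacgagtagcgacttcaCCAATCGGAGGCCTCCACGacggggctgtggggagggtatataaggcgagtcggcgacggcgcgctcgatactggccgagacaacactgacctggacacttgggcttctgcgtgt
Creld2: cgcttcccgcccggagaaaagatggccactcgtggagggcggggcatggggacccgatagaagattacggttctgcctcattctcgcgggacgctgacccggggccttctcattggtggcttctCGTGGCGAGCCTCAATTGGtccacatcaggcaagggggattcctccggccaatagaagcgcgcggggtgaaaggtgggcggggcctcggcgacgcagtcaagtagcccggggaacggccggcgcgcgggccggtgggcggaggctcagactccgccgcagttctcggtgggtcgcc
Calr: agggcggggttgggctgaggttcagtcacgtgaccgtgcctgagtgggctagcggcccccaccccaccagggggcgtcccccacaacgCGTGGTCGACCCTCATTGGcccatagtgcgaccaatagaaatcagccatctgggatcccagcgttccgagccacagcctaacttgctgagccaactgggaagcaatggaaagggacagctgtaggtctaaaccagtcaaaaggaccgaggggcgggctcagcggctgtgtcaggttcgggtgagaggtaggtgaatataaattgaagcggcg
Syvn1: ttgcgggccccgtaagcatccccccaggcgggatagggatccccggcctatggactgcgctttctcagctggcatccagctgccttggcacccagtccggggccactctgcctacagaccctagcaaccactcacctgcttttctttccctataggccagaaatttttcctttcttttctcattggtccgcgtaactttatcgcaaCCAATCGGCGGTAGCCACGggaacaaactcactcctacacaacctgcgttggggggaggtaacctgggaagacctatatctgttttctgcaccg

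The 4 windows are RefSeq promoters of the build GRCm38.p6, each 300 bases from 250 before to 50 after the annotated start, written on the gene's own strand. They lie at chr2:34771840-34772139 (plus strand) for Hspa5, chr15:88819396-88819695 (plus strand) for Creld2, chr8:84846882-84847181 (minus strand) for Calr and chr19:6046326-6046625 (plus strand) for Syvn1. The first base of the element lies 65 bases before the start in Hspa5, 126 in Creld2, 162 in Calr and 44 in Syvn1. It reads on the minus strand of the gene in Creld2 and Calr and on the plus strand in Hspa5 and Syvn1. Both strands were searched. ERSE was found in 20 of the 16251 promoter windows of tested genes (0.123%), which belong to 20 of 12733 genes. Among the 19 ER chaperone genes with a window, 7 held it. Of the 20 genes with the element, 6 were called higher (30%, against 5.06% of all tested genes) and 0 lower. All 6 passed GC-corrected, and 5 of the 6 were also called higher by lithium in WT mice. These 6 were Hspa5, Creld2, Calr, Syvn1, Pdia6 and Dnajc3, all members of the ER chaperone or ER-associated degradation lists. No gene that holds the element and lies outside these lists was called. Hsp90b1 and Canx hold the element and were not called, with effects of 0.14 ± 0.06 and 0.08 ± 0.05. Sdf2l1 and Pdia4 were called and their windows hold neither ERSE nor the shorter ERSE-II (ATTGG and CCACG with any 1 base between them), which occurs in 9 windows (0.0554%), among them those of Herpud1 and Dnajb11. A match to these letters is a description of the window and not a binding site.

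Sdf2l1, a partner of ER-resident chaperones and the member with the largest effect, lay at 301 to 436 normalised counts in the HT lithium libraries (median 387), against 199 to 303 in the HT vehicle libraries (median 237); the groups overlapped only in females. Hspa5, the chief ER chaperone BiP, lay at 7005 to 11485 normalised counts in the HT lithium libraries (median 8647), against 5383 to 8056 in the HT vehicle libraries (median 6807), with males apart and females overlapping. Its effect after GC correction was 0.42, against 0.37 ± 0.091 before it. Calr, the lectin chaperone calreticulin, lay at 9134 to 11759 normalised counts in the HT lithium libraries (median 10604), against 7434 to 9656 in the HT vehicle libraries (median 8884), with the same pattern by sex. Pdia4 and Pdia6, enzymes that form disulfide bonds, rose by 0.35 ± 0.09 (limma adjusted p = 0.00557) and 0.24 ± 0.08 (0.0297), Creld2 by 0.43 ± 0.10 (0.00514), and the HSP40 co-chaperones Dnajc3 and Dnajb11 by 0.22 ± 0.06 (0.0214) and 0.20 ± 0.05 (0.0143). Manf rose by 0.22 ± 0.07 and lost its call after GC correction (adjusted p = 0.0661). The 2 members that fell were Dnajb9 and Dnajc10, co-chaperones that feed misfolded proteins into degradation, at -0.20 ± 0.06 and -0.15 ± 0.05 (GC-corrected adjusted p = 0.571 and 0.309). These members beyond the leading ones were named after their values were seen.

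**Figure D3:**
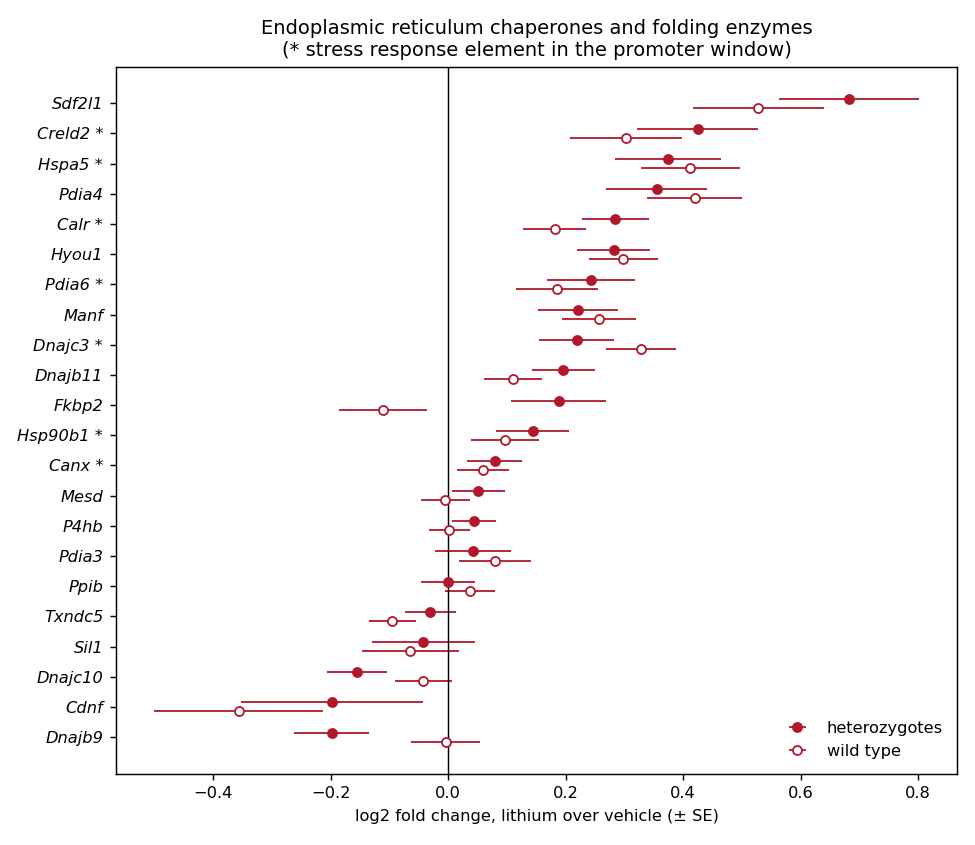
Log2 fold change of lithium over vehicle ± SE for the 22 ER chaperones and folding enzymes, in HT mice (filled) and WT mice (open), with an asterisk for genes whose promoter window holds ERSE. Sdf2l1 has the largest effect, and Dnajb9 and Dnajc10 are the called members on the negative side in HT mice.

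Other arms of the ER response changed in fewer genes. Of 15 ER-associated degradation genes 3 rose and 1 fell (26.7% called, against 9.77% of all tested genes), and 1 of them, Syvn1, passed GC-corrected. Syvn1 encodes the ubiquitin ligase HRD1. It lay at 1401 to 1735 normalised counts in the HT lithium libraries (median 1546), against 1188 to 1388 in the HT vehicle libraries (median 1265), without overlap (0.29 ± 0.051, limma adjusted p = 0.00027). Erlec1, an ER lectin, also did not overlap, but in the other direction (936 to 1061 normalised counts in the HT lithium libraries (median 989), against 1083 to 1303 in the HT vehicle libraries (median 1199)), with an effect of -0.29 ± 0.053 and a GC-corrected adjusted p of 0.068. Herpud1 had 0.17 ± 0.056 (limma adjusted p = 0.0406), a call that ended without the libraries apart (adjusted p = 0.0916) and after GC correction. Among 12 stress sensors and transcription factors 4 rose (33.3%), and Ddit3, the transcription factor CHOP, was the 1 that passed GC-corrected. It lay at 337 to 479.8 normalised counts in the HT lithium libraries (median 403), against 281 to 384 in the HT vehicle libraries (median 302), apart in males and overlapping in females. Eif2ak3, the sensor kinase PERK, and Creb3l2 had 0.15 ± 0.043 and 0.25 ± 0.072, and Creb3l2 had 0.48 in females and 0.027 in males. Of 23 genes of the ATF4 amino acid response 1 rose (4.35%), and of 31 COPII and early secretory transport genes 1 fell (3.23%). Neither passed GC-corrected.

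Of 39 proteasome subunits tested, 14 fell (35.9%, against 4.7% of all tested genes) and 0 rose, with a median effect of -0.09. Of the 14, 4 (Psma6, Psma1, Psma5 and Psmb1) passed GC-corrected. Psma6 and Psma1, both of the alpha ring that gates the proteolytic core, were the leading members. Psma6 lay at 1491 to 1673 normalised counts in the HT lithium libraries (median 1585), against 1806 to 2106 in the HT vehicle libraries (median 1944), and every lithium library lay below every vehicle library (-0.27 ± 0.036, limma adjusted p = 6.99e-06). Psma1 lay at 1539.7 to 1917 normalised counts in the HT lithium libraries (median 1768), against 1998 to 2346 in the HT vehicle libraries (median 2132), also without overlap (-0.28 ± 0.043, limma adjusted p = 3.76e-05). Psma5 and the ATPase subunit Psmc6 did not overlap either, at -0.24 ± 0.044 and -0.30 ± 0.056, and Psmc6 had a GC-corrected adjusted p of 0.149. The median over the list was -0.17 in females and -0.01 in males, and the vehicle females stood highest: the list's level relative to the median library in HT females was 0.00012 ± 0.101 (SD, n = 5) under lithium against 0.12 ± 0.05 (SD, n = 5) under vehicle. In HT males it was -0.02 ± 0.05 (SD, n = 4) under lithium against 0.005 ± 0.017 (SD, n = 3) under vehicle.

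Genes of neighbouring protein complexes were among those with the smallest p. Cops3 and Cops5 are subunits of the COP9 signalosome, which removes the ubiquitin-like NEDD8 from cullin ligases. Cops3 lay at 1248 to 1425 normalised counts in the HT lithium libraries (median 1349), against 1557 to 1748 in the HT vehicle libraries (median 1631), without overlap (-0.29 ± 0.038, limma adjusted p = 6.99e-06). Cops5, the catalytic subunit, lay at 1410.4 to 1809 normalised counts in the HT lithium libraries (median 1601), against 1753 to 2124 in the HT vehicle libraries (median 1979) (-0.29 ± 0.040, limma adjusted p = 1.42e-05); it did not overlap in females and overlapped in males. Ak6, a nuclear adenylate kinase, lay at 1201 to 1669 normalised counts in the HT lithium libraries (median 1443), against 1670.2 to 1984 in the HT vehicle libraries (median 1822), without overlap (-0.32 ± 0.044, limma adjusted p = 9.3e-06). Among 30 cytosolic chaperones 3 fell and 1 rose (13.3% called, against 9.77% of all tested genes). The 3 were Cct4, Cct6a and Cct8, subunits of the chaperonin TRiC, at -0.19 ± 0.035, -0.21 ± 0.040 and -0.17 ± 0.041, and of them Cct6a passed GC-corrected. The rise was in Dnajb5, an HSP40 co-chaperone (0.36 ± 0.070, limma adjusted p = 0.0005, GC-corrected 0.0219).

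Of the 6 tested genes for lithium's own targets 0 were called with limma or edgeR, and 1 had an unadjusted p under 0.05. Gsk3a and Gsk3b had -0.017 ± 0.066 (limma adjusted p = 0.919) and 0.058 ± 0.058 (0.605). Inositol monophosphatase Impa1 lay at 1570.4 to 1993 normalised counts in the HT lithium libraries (median 1829), against 1877 to 2153 in the HT vehicle libraries (median 1982), with an effect of -0.14 ± 0.049 (limma adjusted p = 0.0654), and Impa2, Inpp1 and Bpnt1 had 0.057 ± 0.098, -0.11 ± 0.054 and -0.0035 ± 0.043 (limma adjusted p from 0.22 to 0.976). Downstream, 3 of 27 genes of inositol synthesis, uptake and phosphoinositide signalling rose (11.1%, against 5.06% of all tested genes), none GC-corrected. Isyna1, which makes inositol phosphate from glucose phosphate, lay at 698 to 1011 normalised counts in the HT lithium libraries (median 832), against 621 to 762 in the HT vehicle libraries (median 665); the pooled ranges overlapped, whereas within each sex every lithium library lay above every vehicle library (0.31 ± 0.088, limma adjusted p = 0.0175, GC-corrected 0.106). Slc5a3, the inositol transporter, had 0.19 ± 0.09 (adjusted p = 0.21). Ctnnb1, which encodes beta-catenin, fell: it lay at 14274 to 18185 normalised counts in the HT lithium libraries (median 15983), against 17184 to 20687 in the HT vehicle libraries (median 19115), with males apart, for an effect of -0.25 ± 0.046 (limma adjusted p = 0.000292) and -0.27 GC-corrected (0.000821). Of 23 Wnt and beta-catenin genes 2 rose and 1 fell (13% called, against 9.77% of all tested genes), and Ctnnb1 alone passed GC-corrected. The risers, the Wnt signal transducers Dvl1 and Dvl3, had 0.20 ± 0.062 and 0.16 ± 0.046. Of the 13 genes of the osmotic response, 0 were called with limma or edgeR, and 3 had an unadjusted p under 0.05.

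Ion transporters and channels changed in part. Of 17 sodium pump and ion cotransporter genes 4 rose (23.5%, against 5.06% of all tested genes) and 0 fell, with 2 of the 4 GC-corrected. The chloride extruder Slc12a5 had 0.30 ± 0.085, a call lost without the libraries apart (adjusted p = 0.0814) and after GC correction (0.39). Among 28 voltage-gated potassium and HCN channel genes 5 rose (17.9%), and among 23 sodium and calcium channel genes 4 rose (17.4%). Of these 9, only the inward rectifier Kcnj4 passed GC-corrected (limma adjusted p = 0.0492 after correction). Its effect before correction was 0.26 ± 0.069. The T-type calcium channel gene Cacna1i did not overlap between groups, at 0.33 ± 0.055, with a GC-corrected adjusted p of 0.11.

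At the synapse, scaffold genes and release genes each held several rises. Of 28 postsynaptic scaffold genes 7 rose and 1 fell, which is 28.6% called against 9.77% of all tested genes. Of 24 AMPA and kainate receptor genes 1 rose and 1 fell (8.33% called), and of 7 NMDA receptor genes 1 fell; 0 of these 3 passed GC-corrected. Of 7 metabotropic glutamate receptor genes 0 were called with limma or edgeR, and 1 had an unadjusted p under 0.05. Whether these lists differ was not tested. After GC correction Shank1 remained of the scaffolds, with an effect of 0.30 against 0.52 ± 0.088 before it; it lay at 18645 to 25211 normalised counts in the HT lithium libraries (median 23461), against 10309.7 to 19359 in the HT vehicle libraries (median 15999.8), without overlap in either sex. Shank2 likewise did not overlap in either sex, and had 0.33 ± 0.072 (GC-corrected adjusted p = 0.185). Shank3 itself, whose transcript is 62.4% GC, lay at 7366 to 11196 normalised counts in the HT lithium libraries (median 9984), against 5748 to 8248 in the HT vehicle libraries (median 8027), apart in males and overlapping in females, and its effect of 0.34 ± 0.093 (limma adjusted p = 0.0127) had an adjusted p of 0.429 after GC correction. Mean Shank3 counts of vehicle males (± SD) were 7921 ± 368 for the 3 HT mice against 8002 ± 420.3 for the 5 WT mice, and those of vehicle females 7524 ± 1032 for 5 HT against 6910 ± 713 for 5 WT mice, so its gene-level count does not by itself mark the genotype. Of the 25 synaptic adhesion genes 5 rose and 2 fell, and Nlgn2, the neuroligin of inhibitory synapses, was the one that passed GC-corrected (0.17, adjusted p = 0.0483). Of 33 presynaptic release genes 6 rose and 1 fell. Syn3, a synapsin, passed GC-corrected (limma adjusted p = 0.00676 after correction), and the active-zone gene Bsn did not (0.516). Their effects before correction were 0.36 ± 0.080 and 0.40 ± 0.099.

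Some astrocyte and vessel markers and matrix genes rose, and most members of these lists did not pass. Of 16 brain proteoglycan and perineuronal net genes 3 rose (18.8%, against 5.06% of all tested genes), 1 of them GC-corrected. Ncan, which encodes neurocan, lay at 10398 to 11348 normalised counts in the HT lithium libraries (median 11050.3), against 7362 to 9342 in the HT vehicle libraries (median 8586), without overlap (0.36 ± 0.062, limma adjusted p = 0.000164, GC-corrected 0.0252), and Bcan (brevican) had 0.31 ± 0.073 (GC-corrected adjusted p = 0.0947). Of 20 astrocyte markers 4 rose (20%), and Glul, the glutamine synthetase that clears glutamate, was the 1 GC-corrected. Glul lay at 42396 to 54484 normalised counts in the HT lithium libraries (median 46042), against 36021 to 43106 in the HT vehicle libraries (median 40210.0). It was apart in females and overlapping in males, and its call ended with the compared groups alone. Of 21 endothelial and mural markers 5 rose (23.8%), 1 of them GC-corrected. Markers of cortical interneurons (20), deep-layer neurons (17), striatal projection neurons (16), olfactory bulb (5) and choroid plexus (8) held 0 called genes with limma; edgeR called 6 of the choroid plexus markers and 0 of the others, and the unadjusted p was under 0.05 in 2, 2, 1, 0 and 1 of them. Of 22 myelinating oligodendrocyte markers 1 fell (4.55%, against 4.7% of all tested genes) and 0 passed GC-corrected. The median over these markers was -0.30, with -0.53 in males and -0.19 in females. All 22 had an effect below 0, whereas 50.5% of all tested genes had one above 0. Of the 17 deep-layer neuron markers 16 had an effect below 0, with a median of -0.11. Olfactory markers had a median of -1.62 in males and 0.90 in females; with the sexes averaged it was -0.40, and 0.30 without the libraries apart. Choroid plexus markers had a median of -0.62, and -0.093 without the libraries apart. The part of these tissue differences in the results was not tested; counts without the libraries apart were 8 rises and 0 falls for ER chaperones, 16 falls for proteasome subunits, 6 rises for postsynaptic scaffolds and 4 rises for the sodium pump list.

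Hormone and clock genes responded in part. Of 26 glucocorticoid-responsive genes 4 rose and 1 fell in HT mice (19.2% called, against 9.77% of all tested genes), 2 of the rises GC-corrected. In WT mice 12 rose and 0 fell (in WT 7.05% of tested genes were called higher). The difference between genotypes called none of them. Zbtb16, a transcription factor induced by glucocorticoids, lay at 1178 to 1631 normalised counts in the HT lithium libraries (median 1326), against 697 to 1226 in the HT vehicle libraries (median 858), apart within each sex (0.48 ± 0.092, limma adjusted p = 0.000488), with an effect of 0.79 in females and 0.18 in males. Errfi1, a feedback inhibitor of the EGF receptor, fell as deposited (-0.26 ± 0.068, GC-corrected adjusted p = 0.0776). Of 21 clock genes 3 rose (14.3%, against 5.06% of all tested genes), none GC-corrected. Per2, a repressor of the clock, lay at 1421 to 1792 normalised counts in the HT lithium libraries (median 1706), against 1030.5 to 1517 in the HT vehicle libraries (median 1157), apart in females and overlapping in males (0.42 ± 0.097, GC-corrected adjusted p = 0.0604), and Per1 had 0.40 ± 0.12 (0.262). Of 26 genes of the AKT, mTOR and TSC pathway 2 rose and 0 fell (7.69% called), none GC-corrected. They were Irs2 and Tsc2. Irs2, an insulin receptor substrate, had 0.42 ± 0.090 (GC-corrected adjusted p = 0.0641). Tsc2, an inhibitor of mTOR, had 0.21 ± 0.046, without overlap between groups (GC-corrected adjusted p = 0.187). Cholesterol synthesis genes (31) and interferon response genes (21) held 0 called genes with limma, 1 and 0 with edgeR, and 4 and 1 with an unadjusted p under 0.05.

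The genes called for a difference between males and females included short transcripts of ribosomal and mitochondrial proteins. The test of the difference, males minus females, called 31 genes (0.172%), 29 of them higher (0.161%), and all 29 were above 0 in males and below 0 in females. Lars2, Srp54b, Creb3l2 and Zbtb16, whose effects in each sex are given above, were not among the 31. The 31 genes, some of them pseudogenes, had a median length of 1053 bases, against 3166 over all tested genes. Of the 31, 13 were under 1000 bases, a length that 6.38% of tested genes fall below. The slope of a library's log2 values with transcript length was compared within each sex, per log2 unit of length. In males it averaged -0.013 ± 0.017 (SD, n = 4) under lithium against 0.018 ± 0.035 (SD, n = 3) under vehicle, a difference of -0.031 (2-sided exact permutation, p = 0.171). In females it averaged 0.016 ± 0.031 under lithium against -0.042 ± 0.026 under vehicle (SD, n = 5 each), a difference of 0.058 (2-sided exact permutation, p = 0.0317, not adjusted). With the sexes weighted equally the difference was 0.013 (exact permutation, adjusted p = 0.441 over the 2 slopes), and the part of length in these calls was not tested. Of the 31, 6 encode cytosolic ribosomal proteins, 3 encode respiratory chain subunits and 2 belong to the list of mitochondrial ribosomal proteins. Chchd1, a further mitochondrial ribosomal protein, had 365, 359, 317 and 318 in lithium males against 268, 227 and 215 in vehicle males, and 352, 327, 300.2, 338 and 316 in lithium females against 503, 476, 401, 477 and 357 in vehicle females. By their means vehicle males were the lowest and vehicle females the highest of the 4 groups, neither overlapping the lithium libraries of its own sex. The difference was 0.95 ± 0.15 (limma adjusted p = 0.000454). Usmg5, a small subunit of the ATP synthase, had 2278, 2398, 2037 and 2095 in lithium males against 2127, 1795 and 1807 in vehicle males, and 2010.2, 2118, 2148, 2023 and 1885 in lithium females against 2898, 3349, 3247, 2968 and 2460.3 in vehicle females. The males overlapped and the females did not, for a difference of 0.75 ± 0.11 (limma adjusted p = 0.000236). The import genes Tomm5 and Timm8b and the ribosomal gene Rpl17 had differences of 0.75 ± 0.12, 0.71 ± 0.12 and 0.67 ± 0.11. In each of the 5 genes vehicle males and vehicle females did not overlap, and the means of lithium males and lithium females lay closer together than those of the vehicle groups.

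The same split showed in the medians of whole families. The median effect over 84 cytosolic ribosomal protein genes was 0.20 in males and -0.14 in females, and over 80 nuclear-encoded respiratory chain subunits 0.18 in males and -0.14 in females. The ribosomal list's level relative to the median library in HT males was 0.03 ± 0.05 (SD, n = 4) under lithium against -0.17 ± 0.15 (SD, n = 3) under vehicle. In HT females it was -0.04 ± 0.09 (SD, n = 5) under lithium against 0.10 ± 0.11 (SD, n = 5) under vehicle. HT vehicle female replicate 1, a library apart, stood at 0.28, and the other vehicle females at -0.02 to 0.08. Vehicle male replicate 1 stood at -0.002, against -0.23 and -0.27 in replicates 2 and 3. With the sexes averaged 2 of the ribosomal genes rose and 2 fell; Rplp2 and Rpl14 passed GC-corrected, and Rpl36 and Rps7 did not. Many ribosomal protein genes have processed copies elsewhere in the genome, so their counts may share reads with these. Of the respiratory chain subunits 7 fell and 1 rose, none GC-corrected, led by Ndufv2 (-0.29 ± 0.053) and Uqcrc2 (-0.25 ± 0.054). Of 78 mitochondrial ribosomal protein genes 8 fell, 2 of them GC-corrected: Mrpl39 at -0.25 ± 0.046 and Mrps22 at -0.28 ± 0.051 (GC-corrected adjusted p = 0.00941 and 0.00277). The shares called in these 2 lists, 10% and 10.3%, lay close to the 9.77% of all tested genes, of which 4.7% were lower. In WT mice 20 ribosomal protein and 14 mitochondrial ribosomal protein genes were called lower (4.65% of all tested). The 31 calls between the sexes became 14 after GC and length correction, 5 with the compared groups alone and 33 without the libraries apart. They numbered 5 without HT vehicle male replicate 3 and 73 without HT vehicle female replicate 5, and leaving out any of 11 further HT libraries also moved the count by over 1.5 times.

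**Figure D4:**
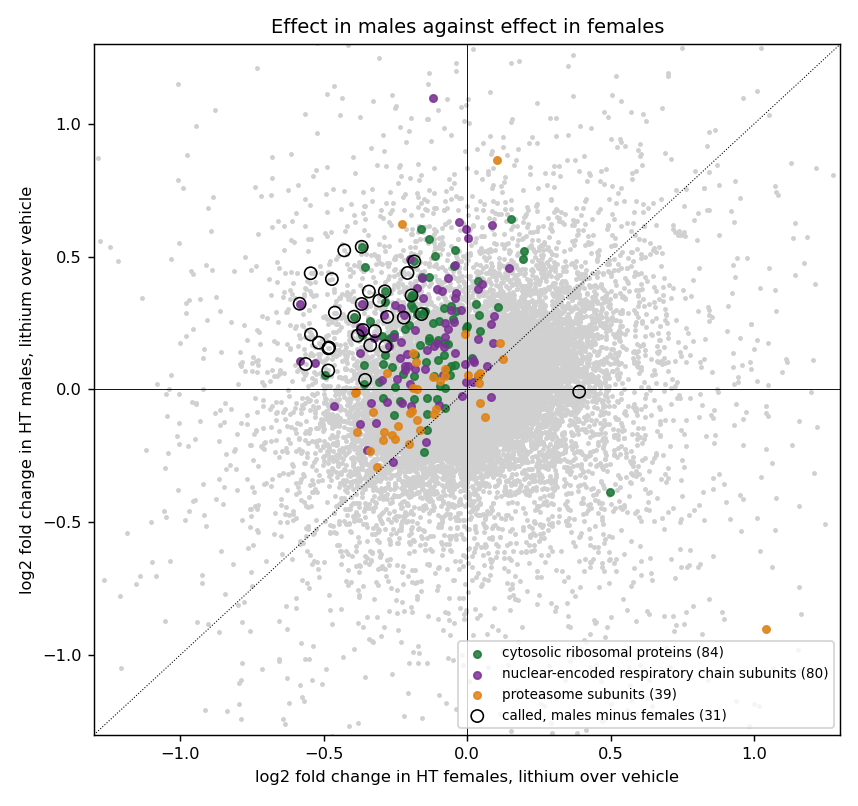
Log2 fold change of lithium over vehicle in HT males (vertical axis) against HT females (horizontal axis) for all tested genes (grey), with cytosolic ribosomal protein genes (green), respiratory chain subunits (purple), proteasome subunits (orange) and the 31 genes called for the difference between the sexes (rings); 181 genes lie beyond the axes, which end at 1.3. Ribosomal and respiratory genes gather at upper left, positive in males and negative in females, and proteasome subunits lie lower.

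The HT response resembled the WT response in direction. Lithium called 2109 genes in WT mice (11.7%), and 689 genes were called in both genotypes in the same direction, which is 39.1% of the HT calls and 32.7% of the WT calls; 0 were called in opposite directions. Of the HT calls 94.2% had the same sign in WT mice, against 66.8% of all tested genes. Of the 22 ER chaperones 8 were called higher and 0 lower in WT mice. Of the 39 proteasome subunits 0 were called higher and 11 lower there. Over all tested genes 7.05% were called higher and 4.65% lower in WT mice. The test of HT minus WT called none of the members of these 2 lists. Across the 18026 tested genes, which are not independent, the effects in HT and WT had Pearson's r = 0.34, and 0.35 with both GC-corrected; the 2 comparisons share no library, but they come from 1 fit. The test of the difference, HT minus WT, called 3 genes (0.0166%), and 0 without the libraries apart, where the smallest adjusted p was 0.0521. Leaving out 1 library moved this count to between 0 and 5. They were Nkd1, an inhibitor of Wnt signalling, Nhsl2, and Vwa1, a matrix protein. Nkd1 had an effect of 0.19 ± 0.081 in HT mice and -0.42 ± 0.08 in WT mice, for a difference of 0.61 ± 0.11 (limma adjusted p = 0.0211). Vwa1 had 0.43 ± 0.091 in HT mice and -0.21 in WT mice (0.64 ± 0.12, 0.0248), and Nhsl2 had 0.059 ± 0.054 and 0.44 (-0.38 ± 0.073, 0.0248). Of the genes named above, Abca7, Col4a2, Psma6, Cops3, Cops5, Ak6, Ctnnb1 and Syn3 were called in the same direction in WT mice, and Mgat4c, Srp54b, Shank1, Nlgn2 and Kcnj4 were not called there, with WT effects of -0.032, -0.13, 0.21, 0.11 and 0.10; none of these 5 passed the test of the difference.

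**Figure D5:**
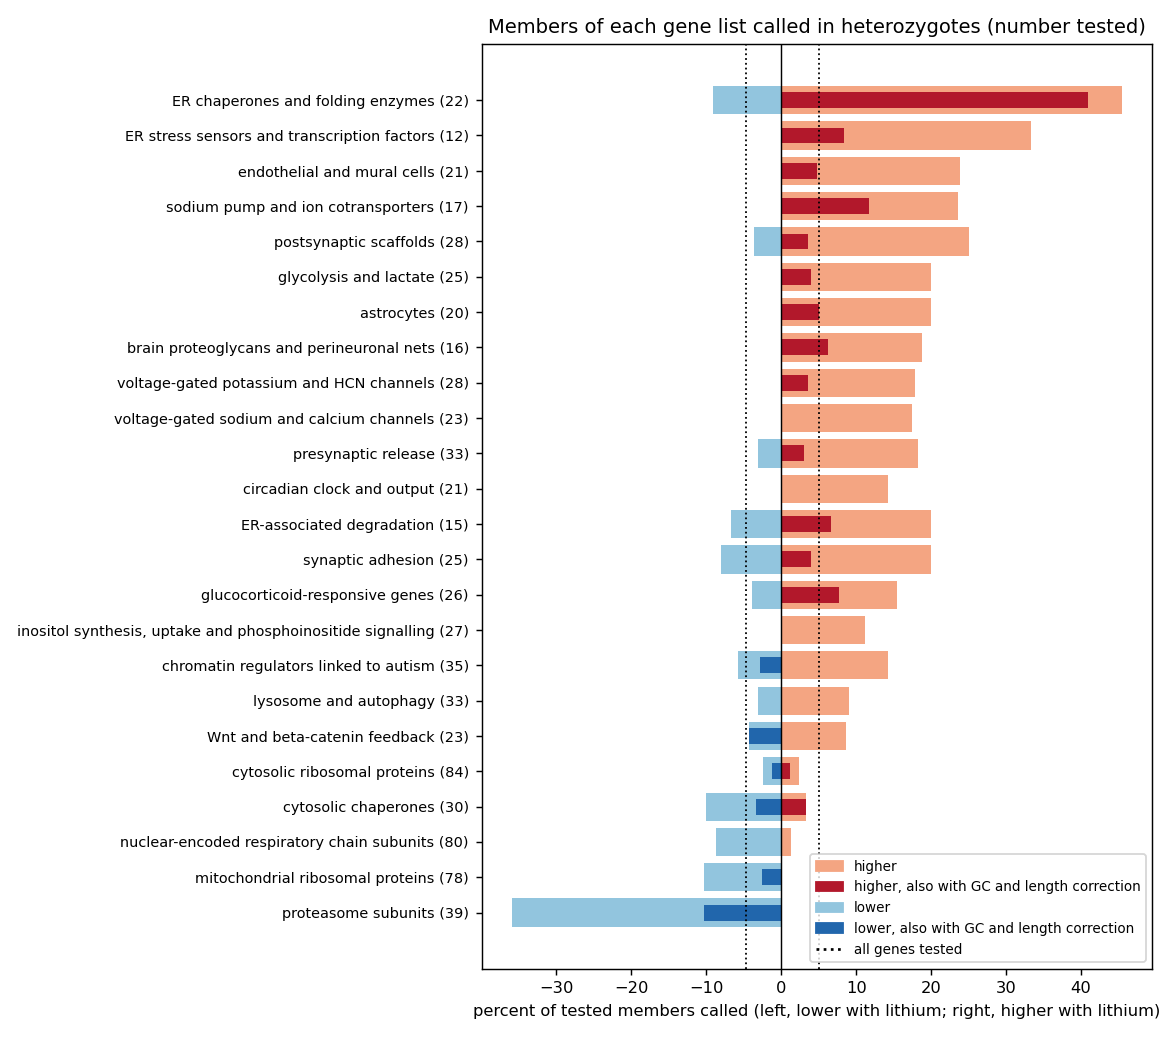
Percent of tested members called in HT mice for each gene list with at least 3 called, falls to the left and rises to the right, with the number tested in brackets, dark bars for members that also passed after GC and length correction, and dotted lines for all tested genes. ER chaperones reach furthest to the right and keep nearly all of their bar after correction, and proteasome subunits reach furthest to the left.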

How the data were processed

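Strand-specific poly(A) libraries were sequenced. The table deposited by the authors holds a signal per gene, its count after division by a size factor; Salmon 0.11.2, R 3.6.0, DESeq2 1.19.11 and GRCm38 are named without roles, per the submitters' processing notes. Size factors scale whole libraries, so a change in total RNA cannot be seen. Of 59 columns 56 matched a sample by name. The other 3, which by their names are HT males given lithium or vehicle, matched no sample and were not used. Also, 1 WT lithium female was not analysed here. All values (100%, within 1e-06) were whole multiples of the column's step, which gives back the reads. No pair of libraries in an HT lithium or HT vehicle group agreed within sampling noise (smallest chi-square per degree of freedom 7.03 over 29 pairs).

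Genes with at least 10 in at least 3 libraries (18026) were fitted as log2(value + 1), a scale that understates changes of low genes, with limma-trend (limma 3.58.1, R 4.3.3) over all 12 groups, the fluoxetine ones included (44 residual degrees of freedom), two-sided, with Benjamini-Hochberg adjustment over all genes of a contrast and a threshold of 0.05. The alternatives included edgeR 4.0.16 on the recovered reads and removal from each library of the trend in GC content and length of the longest GENCODE transcript (splines of 4 degrees of freedom). In simulated data for 18026 genes, changes were placed only in genes with a mean of at least 100. For the HT contrast 92% of changes of 0.5 and 100% of changes of 1 (log2) were recovered (11 false among 203 calls). For HT males 58% and 99% were recovered (8 false among 165). The simulated noise was independent between genes and held no trend in GC content, length or tissue. Changes as small as the median called size of 0.24 were not simulated, so these rates do not carry over to the calls reported. P-values measure the spread between libraries, which may be partly technical.

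The comparison, gene lists and tests were chosen with earlier results of these data known. Genes named are Shank3, lithium's targets, genes from the 15 largest rises and 15 largest falls among called genes with a mean of at least 100, the 10 smallest p, up to 4 called members per list and up to 5 genes per difference; predicted genes and pseudogenes are not named, and further list members were chosen after their values were seen. Some genes that the rule names are not reported here.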

Additional observations from a re-analysis of the deposited data

Results flagged for a closer look

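In 8 genes the lithium effect differed between groups by a test of the difference itself. Between HT males and HT females these were Usmg5 (0.75), Tomm5 (0.75), Chchd1 (0.95), Rpl17 (0.67) and Timm8b (0.71), each the log2 effect in males minus that in females, at limma adjusted p from 2.36e-04 to 6.60e-04. Between HT and WT mice they were Nkd1 (0.61), Nhsl2 (-0.38) and Vwa1 (0.64), at limma adjusted p from 0.0211 to 0.0248. For the WT contrast Nkd1 and Nhsl2 were the called effects, and for HT mice Vwa1 was.

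Single libraries stood far from the others of their group in 12 of 291 sets of values; chance gives about 1 in 20. In HT lithium males replicate 2 was high in Dvl1 (3597 normalised counts, the others 3304 to 3333), Cct6a (3660, the others 3439 to 3473) and Ndufv2 (2649, the others 2165 to 2180). In HT lithium females replicate 5 was low in Inpp1 (656, the others 844 to 877), Dvl3 (1858, the others 2193 to 2321) and Ak6 (1201, the others 1386 to 1448) and high in Crocc (4748, the others 2245 to 2889). Replicate 4 was low in Gsk3b (5943, the others 6806 to 7118) and high in Isyna1 (1011, the others 821 to 876). Replicate 1 was high in Ctnnb1 (18185, the others 14274 to 15346), and replicate 2 in Kbtbd8 (258.5, the others 169.9 to 192). HT vehicle female replicate 1 stood at 5.81 log2 units in choroid plexus markers, the other vehicle females between -0.50 and 0.40.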

How the results depend on the processing

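Of 88 gene effects examined that passed their test, 82 still passed when the compared groups were fitted alone, 80 without the libraries apart and 54 after correction for GC content and length, and 74 whichever single library was left out. All 88 passed with TMM factors, no trend, no filter, a pseudocount of 5, edgeR, array weights, a covariate for olfactory markers and the replicate number as a block. None of the 88 changed sign under these alternatives. Bpnt1, which was not called, turned to 0.0035 (array weights), 0.079 (GC correction) and 0.021 (libraries apart left out), and ranged from -0.019 to 0.022 as single libraries were left out; Gsk3a, also not called, ranged from -0.048 to 0.0035.

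The HT count of 1761 genes became 3452 (array weights), 2844 (olfactory covariate) and 418 (GC correction), and 995 to 1958 as single libraries of the groups compared were left out, as in the ranges that follow. That of HT females, 1894, became 4155 (array weights) and 705 (GC correction), of which 273 were higher and 432 lower, against 1003 and 891 without correction; single libraries gave 1245 to 2065. That of HT males, 3, became 1 (no trend, TMM, replicate block and edgeR alike), 692 (array weights), 20 (olfactory covariate) and 0 (GC correction, where 1225 genes had an unadjusted p under 0.05), and 0 to 1, or up to 5 when libraries of the other lithium and vehicle groups are left out too. The 31 calls of males minus females became 5 (compared groups), 858 (array weights) and 14 (GC correction), and 5 to 73. The WT count of 2109 became 3349 (array weights) and 3278 (olfactory covariate), and 1561 to 2263, or up to 2416 with those of HT mice left out. The 3 calls of HT minus WT became 33 (array weights), 8 (olfactory covariate), 1 (GC correction) and 0 (libraries apart left out), and 0 to 5. The causes were not tested.

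Replicate numbers were not taken as pairs in the main fit, and a check of pairing was mixed. Same-numbered lithium and vehicle libraries had correlations of -0.28 to 0.054 in their deviations. The best partner carried the same number in the 3 pairs of males and in none of the 5 pairs of females. The check cannot settle whether the numbers mark pairs, as the labels name no litters. With the replicate block 1625 genes passed in HT mice. Effects of 0.5 (log2) in males were recovered in 58% of simulated cases, all in genes with a mean of at least 100, which limits what the 3 calls in that sex show.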

Other observations

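The families in this paragraph were assembled after their values were seen, so their counts describe and do not test. Of 369 tested genes named Zfp for zinc finger proteins, 15 were called higher and 38 lower by lithium in HT mice (5.06% and 4.7% of all tested genes were), with a median effect of -0.075; their median GC content was 44.09%, and 0 of the rises and 9 of the falls passed after GC and length correction. Of 10 subunits of the COP9 signalosome 0 were called higher and 4 lower, 3 of the 4 also after correction. Of 11 laminin genes, which encode cross-shaped proteins of basement membranes, 5 were called higher and 0 lower, and 1 of the 5, Lamb2 (0.42, limma adjusted p = 0.0021), also after correction. Of 6 type IV collagen genes 2 were called higher, both also after correction.

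The glucocorticoid-responsive genes Fkbp5 and Hif3a, called higher by lithium in WT mice (0.78 and 0.96), had effects of -0.35 and -0.32 in HT males and 0.57 and 0.69 in HT females, and were not called in HT mice with the sexes averaged (limma adjusted p = 0.709 and 0.583). The test of males minus females called neither of them. These 2 genes were chosen after their values were seen.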
